A study of Mus musculus with 4 samples.

Results

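The lecticans are a family of 4 chondroitin sulfate proteoglycans of the extracellular matrix, brevican (Bcan), neurocan (Ncan), versican (Vcan) and aggrecan (Acan). Their proteins bind the sugar polymer hyaluronan at the amino end and tenascins at the carboxyl end, and link proteins hold them on the hyaluronan chain. Together with tenascins they fill the space around brain cells during development and later form perineuronal nets, dense coats around certain neurons. Genes were chosen by name: these 4, the brain proteoglycan Cspg5 (neuroglycan C), the receptor phosphatase Ptprz1, the tenascins Tnc and Tnr, the link protein Hapln1 and the hyaluronan synthase Has2. A probe set, a group of short probes for 1 transcript, was taken where the platform annotation named exactly 1 gene and that gene was among these 10. The rule gave 27 probe sets of 45037, and every member gene had at least 1. The genes were named with earlier results of these data known.

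ICR mouse embryos gave the cells, which were telencephalic neuroepithelial cells, and 4 Affymetrix arrays measured their RNA. Group E11.5 (2 arrays) held cells taken at embryonic day 11.5 and cultured for 1 day. Group E14.5 (2 arrays) held cells taken at embryonic day 14.5 and cultured for 4 days. Both groups grew with 10 ng/ml basic FGF on polyornithine and fibronectin in DMEM/F12 medium with N2 supplement. Embryonic stage and time in culture change together, so they cannot be told apart. Nothing in the labels says that the arrays of a group came from separate cultures or animals, so p-values measure only how far these arrays lie apart, and that spread may be technical. The number of arrays, 2 in each group, limits the precision of every value.

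Values below are scaled signals, deposited intensities multiplied by 1 factor per array so that all 4 arrays share a trimmed mean of 174. Signals of different probe sets are not compared with each other, since probes differ in how well they bind. A log2 difference is E14.5 minus E11.5 on log2(signal + 12.8), given ± SE with n = 2 arrays per group. The constant is the pseudocount, and it makes the differences of dim probe sets smaller than their signal ratios. Probe sets with a mean signal of at least 27.3 over the 4 arrays were tested, and an adjusted p under 0.05 in limma was the threshold. A probe set could reach that mean through 1 group alone. Scaling makes higher and lower relative to what an array's probe sets gave on average.

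All 10 measured markers of neural progenitors and radial glia had means above the pseudocount in both groups, with summed signals of 20870 to 22679 at E11.5 and 30697 to 31921 at E14.5. Such a sum adds signals of different probe sets and follows mainly the brightest of them, here those of Fabp7 and Vim. Of the 10 markers, 4 passed as higher, 1 as lower and 5 did not pass, beside 14.3% higher and 13.6% lower over all genes tested. Markers of other cells also moved with the groups. All 8 oligodendrocyte precursor markers passed as higher, and their summed signal went from 746 to 955 at E11.5 to 19505 to 21930 at E14.5, with Cspg4 and Gpr17 below the pseudocount at E11.5. Of 9 tested astrocyte markers 8 were higher (sums of 5193 to 5511 and 13119 to 15520), with S100b below the pseudocount at E11.5. Of 10 neuron markers 9 were lower (12351 to 13001 and 3973 to 4513). Of 8 tested microglia and macrophage markers 6 were higher (260 to 292 and 1616 to 1728), with C1qa, C1qc, Aif1 and P2ry12 below the pseudocount at E11.5. Of 7 tested meningeal and mesenchymal markers 3 were lower (1232 to 1233 and 602 to 687), and of 3 tested endothelial markers 1 was higher and 1 lower. Some of these markers, such as Gpr17, Aqp4, Tbr1 and C1qa, reached the filter through 1 group alone. The part of these cell types in the changes described here was not tested. In such bulk samples, fewer cells of a type and less RNA per cell cannot be told apart.

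Most of the matrix genes were higher in the E14.5 cells, and only versican was called lower. By the brightest tested probe set of each gene, Bcan, Ncan, Cspg5, Ptprz1, Tnc and Tnr were higher, Vcan was lower and Has2 did not pass the test. Acan and Hapln1 had no probe set above the filter on signal. That makes 7 of 8 tested members called, against 27.8% of all 12952 genes tested. Of the 8, 6 were higher against 14.3% of all genes, and 1 was lower against 13.6%. The median difference of the 8 was 2.32, beside 0.03 over all genes tested. Since the members were chosen with earlier results of these data known, these shares and the median are descriptions, not independent evidence. Of the 27 member probe sets 17 were tested, of which 11 were higher, 3 lower and 3 did not pass. Over all 27022 probe sets tested, 23.7% were called, 11.1% as higher and 12.6% as lower. The signals of the E11.5 and E14.5 arrays did not overlap for 16 of the 17 member probe sets, beside 61.9% of all tested probe sets.

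**Figure D1:**
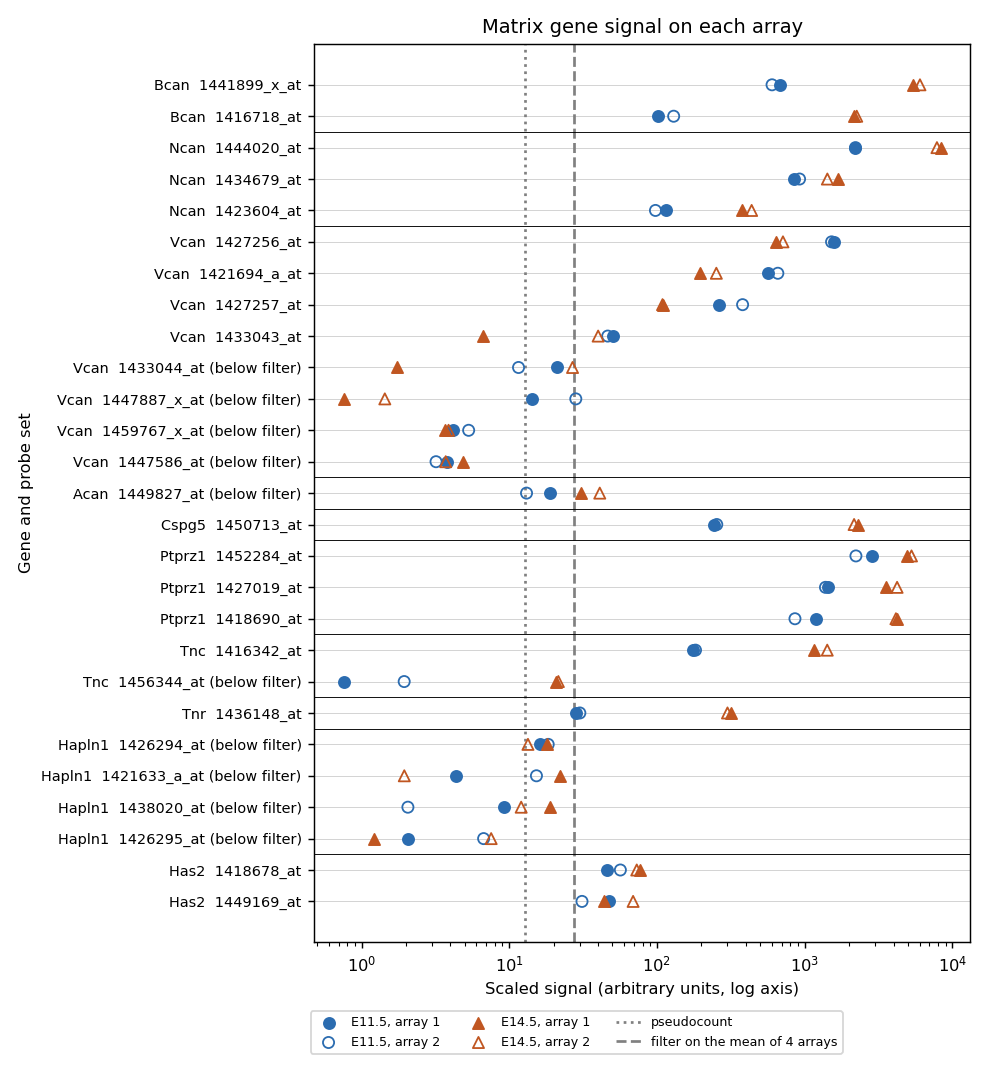
Scaled signal (arbitrary units, log axis) of all 27 probe sets of the 10 genes on each of the 4 arrays, with E11.5 as circles and E14.5 as triangles; the dotted line is the pseudocount of 12.8 and the dashed line the filter of 27.3. The 2 Bcan probe sets and those of Cspg5, Tnr and the brighter Tnc probe set lie far to the right at E14.5, the 4 brightest Vcan probe sets lie to the left, and the Hapln1 probe sets stay at or under 21.9 on every array.

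Brevican, a lectican made mainly in the brain by glial cells, rose at both of its probe sets. At 1441899_x_at the E11.5 arrays gave 683 and 602 and the E14.5 arrays 5381 and 6036, an 8.89-fold ratio of means. The log2 difference was 3.13 ± 0.13 (limma, adjusted p = 6.0e-07), larger in size than that of 99.4% of tested probe sets. The suffix _x_at marks probe sets whose probes can also match other sequences. At 1416718_at, which carries no such mark, the arrays gave 102 and 130 at E11.5 and 2147 and 2253 at E14.5, a 19.0-fold ratio. Its log2 difference was 4.11 ± 0.16 (limma, adjusted p = 5.4e-07). At both probe sets the gap between the groups was many times the gap between arrays of a group, which was at most 0.32 on the log2 scale.

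Neurocan, a lectican of the developing brain that is made by neurons and glia, rose at all 3 of its probe sets, though not equally. The brightest, 1444020_at, gave 2189 and 2209 at E11.5 and 8331 and 7866 at E14.5 (log2 difference 1.87 ± 0.11, limma adjusted p = 3.8e-06). The probe set 1423604_at gave 116 and 97.7 at E11.5 and 377 and 438 at E14.5, a difference of 1.81 ± 0.18. A smaller rise was seen at 1434679_at, with 847 and 924 at E11.5 and 1678 and 1425 at E14.5 (0.80 ± 0.14, limma adjusted p = 0.0021). No E14.5 array overlapped an E11.5 array at any of the 3. Without scaling of the arrays the last 2 were not called (1.09 and 0.026).

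Versican, a large lectican found in embryonic tissues well beyond the brain, fell. Its brightest probe set, 1427256_at, gave 1573 and 1522 at E11.5 and 639 and 713 at E14.5, so that the E11.5 mean was 2.29-fold the E14.5 mean. The log2 difference was -1.18 ± 0.13 (limma, adjusted p = 0.00015). The probe set 1421694_a_at, a type built to detect several transcripts of 1 gene, fell from 564 and 658 to 196 and 252 (-1.40 ± 0.17). At 1427257_at the signal fell from 264 and 380 to 109 and 109 (-1.43 ± 0.21). The ratios of 1421694_a_at and 1427257_at to 1427256_at did not pass a test for unequal change (limma, adjusted p = 0.64 and 0.66).

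The other 5 versican probe sets were dim. At 1433043_at the signals were 50.3 and 46.4 at E11.5 and 6.60 and 40.0 at E14.5, so the E14.5 arrays lay far apart. Its mean reached the filter through the E11.5 group alone, and the difference of -0.93 ± 0.46 did not pass (limma, adjusted p = 0.18). Without E14.5 replicate 2 it passed (-1.66, limma adjusted p = 0.0079), and without E14.5 replicate 1 it was -0.21. The remaining 4 did not reach the filter. In a fit of all probe sets with no filter, 1447887_x_at was lower (14.4 and 28.2 at E11.5, 0.76 and 1.44 at E14.5, limma adjusted p = 0.040) and 1433044_at, 1459767_x_at and 1447586_at did not pass.

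Aggrecan, the lectican of cartilage and of mature perineuronal nets, has a single probe set, and its mean over the 4 arrays was under the filter. The signals at 1449827_at were 18.9 and 13.1 at E11.5 and 30.5 and 41.0 at E14.5, so the groups did not overlap. With no filter the difference was 0.75 ± 0.36 and did not pass (limma, adjusted p = 0.27). Both E11.5 values lay near the pseudocount.

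**Figure D2:**
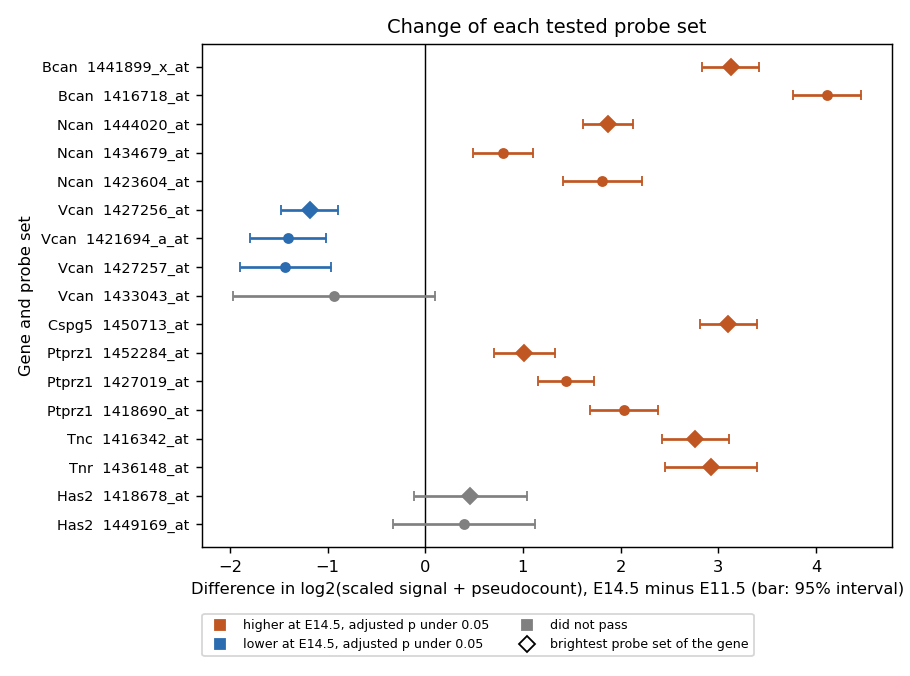
Log2 difference (E14.5 minus E11.5) of the 17 tested probe sets, with bars for the 95% interval of the limma fit; diamonds are the brightest probe set of each gene. The 11 probe sets of Bcan, Ncan, Cspg5, Ptprz1, Tnc and Tnr lie to the right of 0 and the 4 of Vcan to the left, 1 of them with an interval that holds 0, as do both of Has2.

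Promoter sequences are shown for the 3 lecticans that changed, which moved in opposite directions, and for Tnc, which rose with Bcan and Ncan. They are the 250 bases before the transcription start in RefSeq on GRCm38.p6, written 5′ to 3′ on the strand of the gene. Bcan is on chr3:88000357-88000606, Ncan on chr8:70120845-70121094, Vcan on chr13:89742513-89742762 and Tnc on chr4:64047016-64047265, all on the minus strand. Capitals mark 4 short motifs on either strand: GGGCGG (the GC box, bound by SP factors), TATAAA (the TATA box), ACAAT (a core of SOX factor sites) and TTGGCA (a half-site of nuclear factor I).
Bcan: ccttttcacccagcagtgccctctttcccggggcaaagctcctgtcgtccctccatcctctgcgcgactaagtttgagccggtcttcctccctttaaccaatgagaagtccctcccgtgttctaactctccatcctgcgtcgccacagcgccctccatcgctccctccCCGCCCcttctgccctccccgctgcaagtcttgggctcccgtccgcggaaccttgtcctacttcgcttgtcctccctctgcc
Ncan: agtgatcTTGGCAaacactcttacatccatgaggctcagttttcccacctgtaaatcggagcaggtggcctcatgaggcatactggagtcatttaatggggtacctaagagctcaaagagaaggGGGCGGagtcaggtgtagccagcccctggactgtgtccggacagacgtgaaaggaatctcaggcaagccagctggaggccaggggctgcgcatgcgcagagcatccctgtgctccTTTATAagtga
Vcan: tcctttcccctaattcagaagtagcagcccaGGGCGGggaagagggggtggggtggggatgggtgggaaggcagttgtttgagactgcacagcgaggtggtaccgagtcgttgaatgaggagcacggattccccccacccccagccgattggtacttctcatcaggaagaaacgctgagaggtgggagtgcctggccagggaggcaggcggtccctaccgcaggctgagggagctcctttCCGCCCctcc
Tnc: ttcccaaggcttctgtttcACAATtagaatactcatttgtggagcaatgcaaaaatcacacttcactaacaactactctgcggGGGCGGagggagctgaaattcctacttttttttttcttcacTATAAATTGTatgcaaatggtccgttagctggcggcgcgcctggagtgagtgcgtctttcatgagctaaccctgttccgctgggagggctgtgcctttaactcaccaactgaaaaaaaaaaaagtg

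The windows of Bcan and Vcan held GC boxes only, with 1 in Bcan and 2 in Vcan, and that of Ncan held 1 match each of the GC box, the TATA box and the nuclear factor I half-site. The Tnc window had 1 GC box and 2 SOX cores, the second of which overlaps its TATA box. GC content was 62.0% for Bcan, 54.4% for Ncan, 62.4% for Vcan and 44.8% for Tnc. Over the 8 member genes with an entry, which have 9 windows because Tnc has 2 overlapping ones, the GC box was in 7, the TATA box in 3, the SOX core in 3 and the nuclear factor I half-site in 2. The same motifs occur in 32.7%, 12.4%, 27.7% and 12.3% of 32851 such windows in RefSeq. The GC box, the TATA box and the SOX core overlapping it in Tnc lie in both of its windows, so the member counts take each from both. These matches are descriptions of letters, not measured binding, and the arrays hold no measurement of these windows.

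Cspg5, a membrane-spanning proteoglycan of neural cells that carries an EGF-like domain, rose. Its single probe set, 1450713_at, gave 243 and 254 at E11.5 and 2307 and 2162 at E14.5, an 8.99-fold ratio of means. The log2 difference was 3.10 ± 0.13 (limma, adjusted p = 6.7e-07), and arrays of a group differed by no more than 0.093.

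Ptprz1, a receptor tyrosine phosphatase of radial glia and glial precursors whose shed or secreted outer part is the proteoglycan phosphacan, rose at all 3 probe sets. The brightest, 1452284_at, gave 2868 and 2224 at E11.5 and 4944 and 5291 at E14.5 (1.01 ± 0.14, limma adjusted p = 0.00064). At 1427019_at the arrays gave 1450 and 1384, then 3536 and 4227 (1.44 ± 0.13). The rise was steepest at 1418690_at, from 1188 and 860 to 4230 and 4150 (2.04 ± 0.16, limma adjusted p = 1.5e-05). The groups did not overlap at any of them, and without scaling of the arrays the first 2 were not called (0.24 and 0.66).

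Whether probe sets of a gene changed unequally was tested on their ratio to the brightest probe set within each array. Of 10414 such ratios over all genes, 2.04% were called, and 3 of 9 ratios of members were. Bcan 1416718_at rose more than 1441899_x_at, by 0.99 ± 0.20 on the log2 scale (limma, adjusted p = 0.034). Ncan 1434679_at rose less than 1444020_at (-1.08 ± 0.13, limma adjusted p = 0.0033), and Ptprz1 1418690_at rose more than 1452284_at (1.02 ± 0.12, limma adjusted p = 0.0031). Without a variance trend 0 of the 9 passed in limma, with 3 at an unadjusted p under 0.05. Bcan and Ptprz1 are each known to be made as more than 1 transcript. Which transcripts the probe sets of Bcan, Ncan and Ptprz1 detect was not tested, and neither was the cause of the unequal changes.

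Tenascins are large matrix glycoproteins that bind the lectin end of the lecticans. Tenascin-C (Tnc), made by radial glia and astrocyte precursors, had 175 and 182 at E11.5 and 1165 and 1422 at E14.5 at 1416342_at. The log2 difference was 2.76 ± 0.15 (limma, adjusted p = 2.3e-06). Its other probe set, 1456344_at, was dim, with 0.76 and 1.94 at E11.5 and 20.8 and 21.5 at E14.5. It did not reach the filter, and with no filter it was higher too (1.26 ± 0.26, limma adjusted p = 0.023). Both probe sets therefore separated the groups, the second with E11.5 values below the pseudocount.

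Tenascin-R (Tnr), which oligodendrocyte lineage cells and some neurons make and which crosslinks lecticans in perineuronal nets, had the steepest signal ratio after brevican's 1416718_at among tested member probe sets. At 1436148_at the E11.5 arrays gave 28.5 and 30.1, close to the filter, and the E14.5 arrays 315 and 300.4. The ratio of means was 10.5 and the log2 difference 2.93 ± 0.21 (limma, adjusted p = 1.1e-05). Over the alternatives the difference ran from 2.28, with arrays unscaled, to 3.32, with a smaller pseudocount.

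Hapln1, the link protein that fastens lecticans to hyaluronan, was dim on every array. Its 4 probe sets gave signals of 1.22 to 21.9, all below the filter, and arrays of 1 group often differed more than the groups did. At 1421633_a_at, for example, the arrays gave 4.33 and 15.3 at E11.5 and 21.9 and 1.95 at E14.5. With no filter the differences ran from -0.077 to 0.63, and none of the 4 passed in limma (adjusted p from 0.29 to 0.99).

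In the RefSeq annotation each lectican gene lies next to a link protein gene, with 0 protein-coding genes between: Vcan beside Hapln1, Bcan beside Hapln2, Acan beside Hapln3 and Ncan beside Hapln4. No link protein gene passed the test, and only Hapln3 reached the filter, through the E14.5 group alone. Hapln2, known from the nodes of myelinated axons, gave 2.61 to 18.4 over its 2 probe sets and 4 arrays. Hapln3 gave 19.8 and 31.6 at E11.5 and 48.7 and 35.3 at E14.5, and its difference of 0.52 ± 0.35 did not pass (limma, adjusted p = 0.34). Hapln4, a link protein of perineuronal nets, gave 2.25 and 4.93 at E11.5 and 15.0 and 49.5 at E14.5. It did not reach the filter, and with no filter its difference of 1.35 ± 0.43 did not pass (limma, adjusted p = 0.10).

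Has2, the synthase that makes long hyaluronan chains in embryonic tissues, did not pass the test at either probe set. At 1418678_at the arrays gave 45.7 and 56.6 at E11.5 and 76.8 and 73.0 at E14.5 (0.46 ± 0.26, 95% interval -0.12 to 1.04, limma adjusted p = 0.24). At 1449169_at they gave 47.5 and 31.1, then 43.5 and 69.0, and the groups overlapped (0.40 ± 0.33, limma adjusted p = 0.43). Without scaling of the arrays both differences turned negative (-0.19 and -0.21). Leaving out single arrays moved the second from 0.13 to 0.67, and it did not pass in any of those fits.

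The other hyaluronan synthases were lower at E14.5. Has3 gave 169 and 156 at E11.5 and 4.54 and 7.34 at E14.5 (-3.23 ± 0.29, limma adjusted p = 4.6e-05). Has1 gave 67.8 and 46.3 at E11.5 and 10.8 and 11.3 at E14.5 (-1.53 ± 0.36, limma adjusted p = 0.012). Both genes reached the filter through the E11.5 group alone. They lay below the pseudocount at E14.5, so the size of these differences depends on it. With a larger or a smaller pseudocount they were -2.09 or -4.47 for Has3 and -0.89 or -2.19 for Has1. The call of Has1 was lost without E11.5 replicate 1 (-1.31). Cemip2, a cell surface protein linked to hyaluronan breakdown, fell from 877 and 903 to 223 and 224 (-1.93 ± 0.14). Hexa, a subunit of a lysosomal enzyme that takes part in hyaluronan breakdown, rose from 386 and 245 to 1429 and 1373 (2.14 ± 0.19). Of 9 tested genes for hyaluronan synthesis, breakdown and binding, besides Has2, 1 was higher and 3 were lower, or 44.4% called beside 27.8% of all genes (median -0.21, beside 0.03 over all genes). The hyaluronan receptor Cd44 did not pass, with 245 and 236 at E11.5 and E14.5 arrays far apart at 483 and 281 (0.59 ± 0.23, limma adjusted p = 0.091). Its difference was 0.21 when E14.5 replicate 1 was left out and 0.48 with probe sets averaged. It passed as higher when E11.5 replicate 1 was left out (0.62), when E14.5 replicate 2 was (0.97), and with the replicate block (limma, adjusted p = 0.027).

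**Figure D3:**
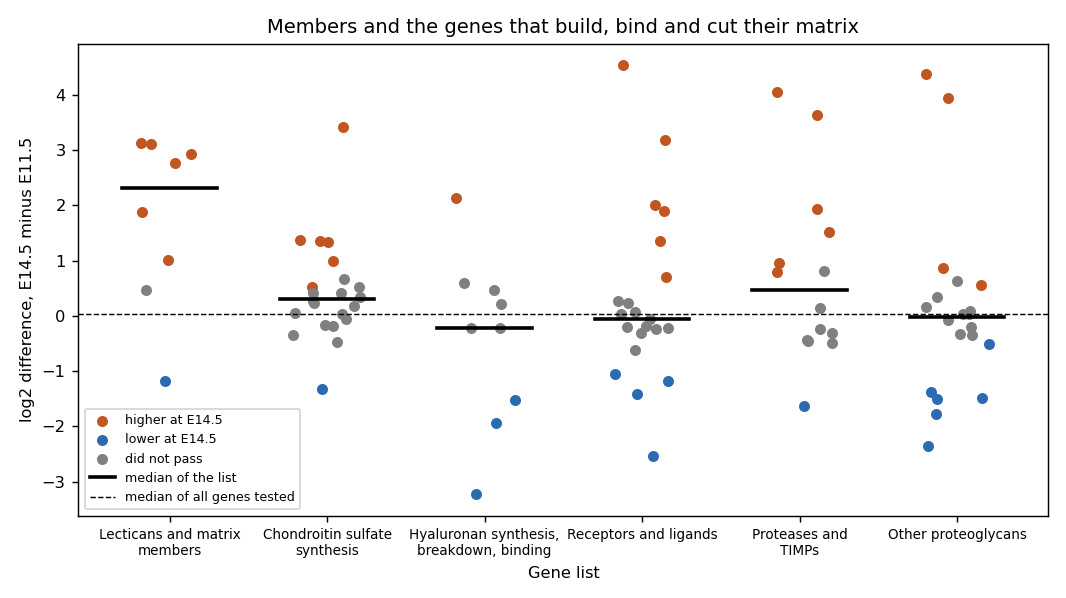
Log2 difference (E14.5 minus E11.5) of each tested gene, by its brightest probe set, for the members and 5 lists of genes that build, bind or cut their matrix; bars are list medians and the dashed line is the median of all genes tested. The member median of 2.32 lies above those of the 5 lists, which run from -0.21 to 0.47, and each of the 5 holds genes called in both directions.

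Enzymes that build chondroitin sulfate, the sugar chain of the lecticans, moved in part. Of 22 tested genes 6 were higher, 1 was lower and 15 did not pass (median 0.30), so 31.8% were called beside 27.8% of all genes. The largest rise was that of Chst7, a sulfotransferase that adds sulfate at the 6 position of chondroitin, from 28.0 and 33.0 to 353 and 570 (3.42 ± 0.25, limma adjusted p = 1.2e-05; 2.76 with a larger and 3.81 with a smaller pseudocount). Ugdh, which makes the UDP-glucuronate used for these chains and for hyaluronan, rose from 709 and 746 to 1759 and 2042 (1.37 ± 0.13), a call that was lost with arrays unscaled (0.60). Chst11, which sulfates the 4 position, rose by 1.35 ± 0.16 (0.89 with its probe sets averaged). Csgalnact1, which starts chondroitin chains, rose by 1.33 ± 0.23. The gene that was lower was Chst15, which adds a second sulfate to 4-sulfated units (-1.32 ± 0.33), and its call was lost without the filter and with probe sets averaged (-0.77). Without scaling of the arrays 1 gene of this list was called higher.

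Receptors and ligands of these proteoglycans and tenascins moved in both directions, with 6 of 21 tested genes higher, 4 lower and 11 not passing (median -0.055). That is 47.6% called beside 27.8% of all genes, and with arrays unscaled 3 were higher and 5 lower. Contactin-1 (Cntn1), a neural adhesion protein that binds tenascin-R and Ptprz1, rose from 304 and 267 to 2278 and 3186 (3.19 ± 0.17, limma adjusted p = 2.0e-06; 2.49 with its probe sets averaged). Egfr, to which EGF-like repeats of tenascin-C can bind, rose by 4.53 ± 0.14 (2.67 with its probe sets averaged), and the syndecan Sdc3, a receptor of pleiotrophin, by 2.01 ± 0.17 (1.27 averaged). L1cam, a neuronal adhesion protein that binds neurocan, fell from 772 and 900.4 to 132 and 132 (-2.55 ± 0.16). The growth factors pleiotrophin (Ptn) and midkine (Mdk), both ligands of Ptprz1, are named here after their values were seen. Ptn rose from 2724 and 2568 to 6764 and 6838 (1.36 ± 0.11), and Mdk fell from 2540 and 2143 to 1048 and 713 (-1.42 ± 0.18).

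Proteases that can cut lecticans and the TIMPs that inhibit such proteases were counted together, so the counts are not those of proteases alone. Of 14 tested genes 6 were higher, 1 was lower and 7 did not pass (median 0.47), or 50% called beside 27.8% of all genes. The inhibitors Timp4 and Timp3 had the largest rises. Timp4 went from 17.7 and 20.3 to 459 and 576 (4.05 ± 0.22), and Timp3 from 29.4 and 18.3 to 384 and 496 (3.63 ± 0.24; 2.04 with its probe sets averaged). With a larger or a smaller pseudocount the differences were 3.19 or 4.65 for Timp4 and 2.87 or 4.14 for Timp3. Timp4 and Timp3 reached the filter through the E14.5 group alone, with E11.5 means of 19.0 and 23.9. Mmp16, a membrane-bound metalloprotease, rose by 1.94 ± 0.52 (1.22 with its probe sets averaged), with E11.5 arrays far apart at 119 and 17.4. Its difference was 3.01 without E11.5 replicate 1 and 0.88 without E11.5 replicate 2, and its call was lost without the filter or the variance trend (limma, adjusted p = 0.093 and 0.11). Adamts20, a protease of the family that cleaves versican, fell from 95.9 and 77.4 to 12.1 and 28.4 (-1.63 ± 0.34; -1.06 with a larger and -2.12 with a smaller pseudocount). It reached the filter through the E11.5 group alone, with an E14.5 mean of 20.2. The calls of Adamts5 (1.51 ± 0.35) and Adamts9 (0.80 ± 0.21) as higher were lost without E14.5 replicate 2 (0.88 and 0.54). Without the filter, or without the variance trend, 3 genes of this list were higher rather than 6, and without scaling 2 were higher and 2 lower.

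Other proteoglycans were split between rises and falls, with 4 of 20 tested genes higher, 6 lower and 10 not passing (median -0.018), or 50% called beside 27.8% of all genes. Cspg4, the NG2 proteoglycan of oligodendrocyte precursors, rose from 9.67 and 4.16 to 357 and 430 (4.37 ± 0.26), from below the pseudocount, and the difference was 3.15 with a larger and 5.61 with a smaller one. Smoc1, a calcium-binding matrix protein that the list holds beside the proteoglycans, rose from 189 and 152 to 2630 and 3001 (3.95 ± 0.15). The testican Spock1 fell from 74.5 and 113 to 7.24 and 8.01 (-2.36 ± 0.34; -1.44 with a larger and -3.34 with a smaller pseudocount), and the small proteoglycan lumican (Lum), also counted as a meningeal marker, from 220 and 169 to 55.0 and 40.2 (-1.78 ± 0.24). Cspg4 reached the filter through the E14.5 group alone, and Spock1 through the E11.5 group alone. With probe sets averaged, or with arrays unscaled, 2 genes of this list were higher. Over all 5 lists and the link proteins, 23 of 87 tested genes were higher and 15 lower, or 43.7% called, beside 27.8% of all genes. The lists too were chosen with earlier results of these data known, so their shares are descriptions only.

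**Figure D4:**
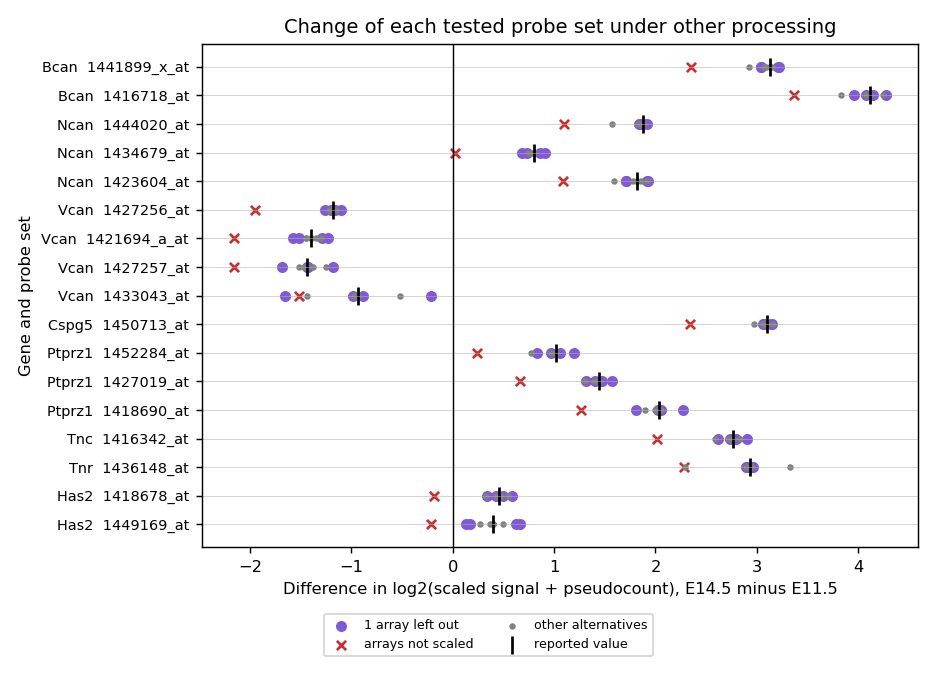
Log2 difference (E14.5 minus E11.5) of the 17 tested member probe sets as reported (black bars), with 1 array left out, with arrays not scaled, and under the other alternatives. All differences of Bcan, Cspg5, Tnc and Tnr stay above 2, those of Vcan stay below 0, and leaving the arrays unscaled moves both Has2 probe sets to the left of 0.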

How the data were processed

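The deposited table holds 1 linear intensity per probe set and array for 45101 probe sets. The authors made these intensities in GCOS, software of the array's maker, as the submitters' processing notes name it. No version or setting of GCOS is given in the sources used here. After 64 control probe sets were set aside, symbols came from the platform annotation, which named 1 gene for 34945 probe sets, and were checked through Entrez identifiers against RefSeq (204 unmatched).

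Trimmed means (2%) lay up to 2.43-fold apart, so arrays were scaled to a common one (factors 0.932 and 0.691 for E11.5, 1.13 and 1.68 for E14.5). The filter was the 40th percentile of mean signal, and the pseudocount the 25th percentile of all scaled values. limma 3.58.1 in R 4.3.3 (lmFit, eBayes with a variance trend, 2 residual and 7.99 prior degrees of freedom) compared the groups, with Benjamini-Hochberg adjustment over 27022 probe sets, or 10414 ratios within genes. A gene was represented by its brightest tested probe set. The fits were tested on simulated data. There, among 27022 probe sets, 100 were changed by 1 log2 unit and 100 by 2. The comparison of the groups recovered 57% of the former and 90% of the latter. In the arrays 23.7% of tested probe sets were called, far more than were changed in the simulation. The shares recovered are therefore not the sensitivity of the reported comparison, and small changes can be missed.

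The members and gene lists were chosen with earlier results of these data known. Named genes are all members and link proteins, up to 4 called genes per list by size and up to 3 per cell type list, which are summarised here by their summed level. Differences are on a log2 scale of the deposited values after scaling. Ptn, Mdk, Cd44, Adamts5, Adamts9 and Chst15 were added after their values were seen. Alternatives covered scaling, pseudocount, filter, variance trend, averaging of probe sets, a replicate block and leaving out each array. Those for the ratios within genes were chosen after seeing the data.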

Additional observations from a re-analysis of the deposited data

How the results depend on the processing

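Every call of Bcan, Cspg5, Tnc 1416342_at, Tnr, Vcan at its 3 brightest probe sets, Ncan 1444020_at and Ptprz1 1418690_at kept its direction and passed under all 12 alternatives run on single probe sets. Leaving out each array in turn gave 11 member probe sets higher each time and 3 to 4 lower, 6 member genes higher and 1 lower, 21 to 26 list genes higher and 13 to 15 lower, and 3 unequal ratios within member genes; a group left with 1 array is assumed to vary like the other. With no filter 12 member probe sets were higher and 4 lower.

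Leaving the arrays unscaled shifted the median of all genes to -0.69, and 7.51% of called probe sets were higher, beside 47.0% as reported. Members are then read against that shift. In this setting 7 member probe sets and 9 list genes were higher (11 and 23 as reported), and the differences of Has2 (-0.19 and -0.21), Hapln3 (-0.038) and Cd44 (-0.15) turned negative. Without the variance trend 0 of 9 ratios within member genes passed, with 3 at an unadjusted p under 0.05, and 58 of 10414 over the table.

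Ratios that did not pass also changed sign. That of Ncan 1423604_at turned positive with quantile normalization (0.28), with a smaller pseudocount (0.038), and with replicate 1 of E11.5 (0.054) or of E14.5 (0.086) left out. With arrays left out in turn, that of Vcan 1427257_at ran from -0.53 to 0.026 (without E11.5 replicate 2), and that of Has2 1449169_at from -0.41 to 0.29 (without E11.5 replicate 1), with 0.24 when replicate 1 of E14.5 was left out. That of Vcan 1433043_at turned negative with a smaller pseudocount (-0.24) and ran from -0.40 (without E14.5 replicate 2) to 0.89 (without E14.5 replicate 1). The cause was not tested.

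Arrays share replicate numbers across the groups, but same-numbered arrays did not deviate together over the table (r = 0.0041 across probe sets). That value cannot exclude a shared factor that touches few genes, and the labels do not name a pairing. With the replicate block, 11 member probe sets were higher and 3 lower, 26 list genes higher and 16 lower, and 4 ratios unequal. Acan, Hapln1, Hapln2 and Hapln4 did not reach the filter on signal and did not pass without it, while Tnc 1456344_at and Vcan 1447887_x_at, also under the filter, passed without it.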
